A study of Mus musculus with 12 samples.

Results

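The genes of major histocompatibility complex (MHC) class I and class II were followed across 12 mouse hearts by RNA sequencing. The 10 genes were taken by symbol from the 25171 rows of the deposited count table. The 6 class II genes were H2-Aa, H2-Ab1, H2-Eb1, Cd74, H2-DMa and Ciita, the 4 class I genes were H2-K1, H2-D1, B2m and Tap1, and every gene had exactly 1 row. The choice of genes used no measured value of a comparison, although it was made with earlier results of these data known.

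All hearts came from mice that carry NOTCH2NLC with 98 GGC repeats behind a loxP-flanked stop in the Rosa26 locus, and each of the 4 groups held 3 hearts. EIIa-tg hearts (labelled E2a-transgenic) came at postnatal day 30 from mice crossed with EIIa-Cre, which removes the stop throughout the body. EIIa-ctl hearts (E2a-control) came at the same age from littermates lacking this Cre. Myh6-tg hearts (myh6-transgenic) came at day 90 from mice with Myh6-creERT2, a Cre driven in cardiomyocytes that tamoxifen activates, after 3 intraperitoneal injections of tamoxifen at 75 mg/kg begun at day 60. Myh6-ctl hearts (myh6-control) have the same transgenic genotype label and age but received corn oil alone, so that tamoxifen itself and its effect through Cre cannot be told apart in this comparison. In the EIIa-tg group the genotype field reads e3a and e4a in replicates 2 and 3, and these hearts were grouped by their titles. The NOTCH2NLC transgene was not analysed here.

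Several properties of the libraries bear on what follows. Total counts ranged from 38343106 to 50969834 per heart, and a count of 0 allowed at most 0.0559 to 0.0822 normalised CPM (3 counts, counting error only), where normalised CPM are counts scaled to a common library size with edgeR's trimmed mean of M values over the 12 hearts. One label describes the RNA source as brain, but 6 cardiomyocyte markers summed to between 8597 and 35793 normalised CPM in every heart. The 13 mitochondrial messenger RNAs took 15.5 to 18.6% of the counts in Myh6-tg and 31.8 to 38.3% in Myh6-ctl hearts. Esr1 encodes estrogen receptor alpha, a part of which makes creERT2 responsive to tamoxifen. It had 1027 to 2336 normalised CPM in Myh6-ctl hearts and 0.988 to 2.49 in Myh6-tg hearts, against 0.411 to 1.24 in the EIIa groups. The groups are named here by their labels, and the reason for this difference in Esr1 was not tested. Within Myh6-tg, replicate 1 stood apart, with a chi-square per degree of freedom of 255 and 304 against replicates 2 and 3, which differed from each other by 37.2. It was also the Myh6-tg heart with Y-linked counts (7307, against 0 in the others), and replicate 1 held nearly all such counts in the other groups too. The tests of the 10 genes and of the gene lists in Myh6-tg are therefore given with and without Myh6-tg replicate 1.

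MHC class I molecules present peptides from inside a cell to CD8 T cells and are made by nearly all nucleated cells. H2-K1 and H2-D1 encode their heavy chains, B2m the light chain shared by all heavy chains, and Tap1 a subunit of the transporter that carries peptides into the endoplasmic reticulum. MHC class II molecules present peptides taken up from outside the cell to CD4 T cells and are made mainly by macrophages, dendritic cells and B cells. H2-Aa, H2-Ab1 and H2-Eb1 encode class II chains, Cd74 the invariant chain that guards their groove, and H2-DMa a chain of the molecule that exchanges the invariant chain's last fragment for peptide. Ciita encodes the transactivator that switches class II genes on at a conserved X and Y box promoter, while class I promoters are known for a kappa B site and an interferon response element.

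In the GENCODE annotation of GRCm38, 7 of the genes lie on chromosome 17 between 33996017 and 35267499, a stretch of 1271.5 kb. They are all protein-coding, and in the order of the chromosome they are H2-K1 (33996017 to 34000347), H2-DMa (34119541 to 34139101), Tap1 (34187553 to 34197225), H2-Ab1 (34257689 to 34269419), H2-Aa (34282744 to 34287823), H2-Eb1 (34305867 to 34316674) and H2-D1 (35262730 to 35267499). Ciita lies on chromosome 16 (10480059 to 10528418) and B2m on chromosome 2 (122147686 to 122153083). Promoter sequence from RefSeq (GRCm38.p6) was matched for 7 of the genes. The 4 promoters below, each the 180 bases before a transcription start, are shown because they hold elements known from class II promoters (X and Y boxes) or class I promoters (kappa B and interferon response), although 1 of them holds letters of both. Capitals mark the Y box (TGATTGG), the core of the X box (GCAAC), the kappa B core (GGGATTCCC) and an interferon response motif (TTTCACTT), each searched on both strands.

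H2-Aa (chr17:34287824-34288003, minus strand): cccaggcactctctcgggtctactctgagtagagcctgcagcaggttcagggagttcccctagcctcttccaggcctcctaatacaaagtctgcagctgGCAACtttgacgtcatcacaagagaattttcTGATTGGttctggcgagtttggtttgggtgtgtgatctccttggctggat

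H2-Eb1 (chr17:34305687-34305866, plus strand): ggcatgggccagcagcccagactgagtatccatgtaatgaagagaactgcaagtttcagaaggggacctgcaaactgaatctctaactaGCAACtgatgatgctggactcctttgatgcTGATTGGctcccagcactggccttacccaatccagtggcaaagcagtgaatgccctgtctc

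H2-K1 (chr17:34000348-34000527, minus strand): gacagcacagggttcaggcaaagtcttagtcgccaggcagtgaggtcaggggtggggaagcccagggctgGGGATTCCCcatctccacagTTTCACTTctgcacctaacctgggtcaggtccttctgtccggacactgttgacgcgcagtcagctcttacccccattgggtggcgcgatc

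H2-D1 (chr17:35262914-35263093, plus strand): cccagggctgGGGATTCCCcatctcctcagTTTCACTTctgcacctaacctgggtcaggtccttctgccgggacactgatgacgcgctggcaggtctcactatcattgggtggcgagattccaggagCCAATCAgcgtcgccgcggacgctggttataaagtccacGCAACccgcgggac

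In H2-Aa the X box core began 81 bases and the Y box 50 bases before the start, and in H2-Eb1 they began 91 and 61 bases before it. The kappa B core and the interferon response motif began 110 and 90 bases before the start in H2-K1 and 170 and 150 bases before it in H2-D1. H2-D1 also held a Y box on the other strand and the letters GCAAC close to its start. The upstream parts of H2-K1 and H2-D1 were alike, with 107 of 120 aligned bases identical (89.2%). Of the 32851 mouse promoters of the same length, 6.31% held the Y box letters, 23.1% the GCAAC letters, 0.18% the kappa B letters and 0.901% the interferon response letters. B2m and Tap1 held none of the 4 strings in this window, and H2-DMa held GCAAC alone. These matches describe letters and say nothing of binding.

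Levels per transcript length were compared in FPKM, the deposited measure that divides by gene length and library size. In EIIa-ctl hearts B2m was the most abundant of the 10 genes at 419 ± 101 FPKM (SD, n = 3), followed by Cd74 at 140 ± 17.8, H2-D1 at 137 ± 31.7 and H2-K1 at 135 ± 34.8, and these last values did not differ beyond their spread. The class II chains H2-Aa, H2-Eb1 and H2-Ab1 came next at 75.4 ± 10.4, 59.7 ± 9.93 and 51.6 ± 7.09 FPKM. Tap1 (5.66 ± 1.67 FPKM) and H2-DMa (4.37 ± 0.859 FPKM) followed, and these did not differ from each other beyond their spread. Ciita was the rarest at 0.223 ± 0.130 FPKM. In Myh6-tg hearts both heavy chains had a higher mean FPKM than each class II gene, with H2-D1 at 210 ± 17.2 and H2-K1 at 141 ± 19.9 against Cd74 at 102 ± 66.7, H2-Aa at 55.9 ± 35.1, H2-Eb1 at 41.7 ± 26.1 and H2-Ab1 at 30.9 ± 19.1. Among the Myh6-tg hearts replicate 1 had the lowest value of each of these class II genes.

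Myh6-tg hearts were compared with Myh6-ctl hearts, as labelled, to ask how activating the transgene in cardiomyocytes affects the heart. The groups also differ in tamoxifen and in the level of Esr1, and these differences cannot be told apart from that activation. The class II genes were lower in Myh6-tg hearts, from 1.45-fold for H2-DMa to 5.57-fold for Ciita, while class I genes differed by at most 1.38-fold. By edgeR's quasi-likelihood test with Benjamini-Hochberg adjustment over all 15298 genes tested, 2 of 6 class II genes fell (Ciita and H2-Ab1) and none of 4 class I genes did. In this comparison 18.3% of all genes passed an adjusted p of 0.05 in either direction and 9.38% passed it downwards. In whole-tissue RNA, fewer cells that express a gene and less RNA per cell cannot be told apart. The values by heart are shown in the plot of class II and class I genes.

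**Figure D1:**
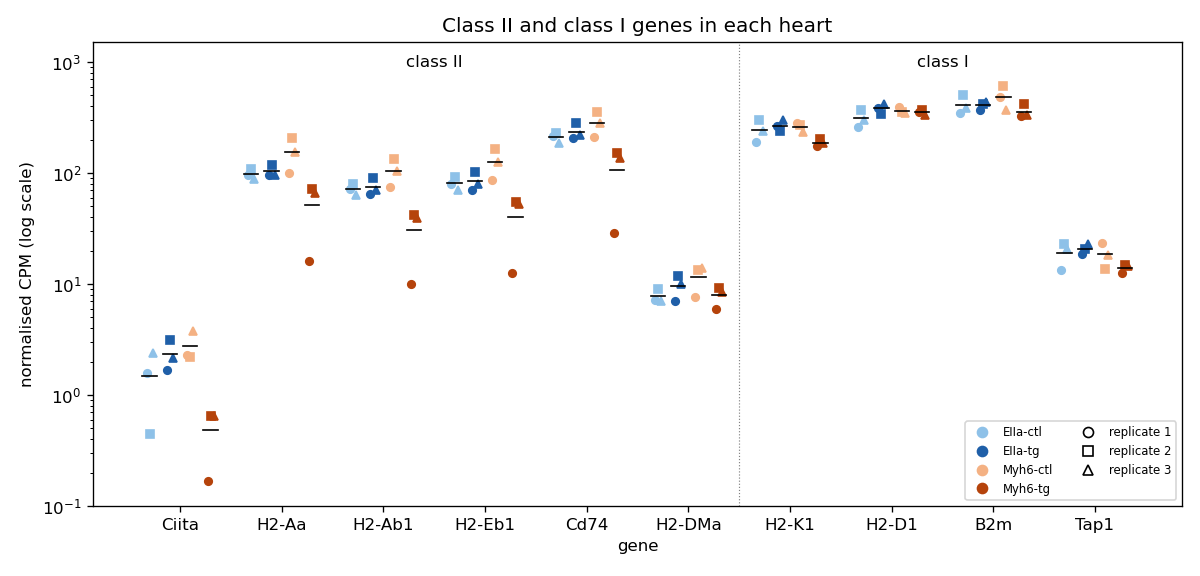
Normalised CPM (log axis) of the 6 class II and 4 class I genes in each of the 12 hearts; colours mark the groups, symbols the replicate number and bars the group mean. H2-Aa, H2-Ab1, H2-Eb1, Cd74 and Ciita are lower in all 3 Myh6-tg hearts than in all 3 Myh6-ctl hearts and lowest in replicate 1, whereas the H2-D1 values of the Myh6 groups overlap.

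Ciita had 2.31, 2.21 and 3.80 normalised CPM in Myh6-ctl replicates 1, 2 and 3 and 0.169, 0.645 and 0.652 in Myh6-tg replicates 1, 2 and 3. The groups did not overlap, and the lowest heart rested on 8 counts. Ciita fell by 2.48 on the log2 scale (standard error 0.60, edgeR adjusted p = 0.0277).

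H2-Ab1, the beta chain of the A molecule, had 74.7, 132 and 105 normalised CPM in Myh6-ctl hearts and 9.97, 42.0 and 39.7 in Myh6-tg. All Myh6-tg hearts were below all controls, and replicate 1 was the lowest. H2-Ab1 fell by 1.75 on the log2 scale (standard error 0.50, edgeR adjusted p = 0.0490).

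H2-Aa, the alpha chain paired with it, had 99.6, 205 and 154 normalised CPM in Myh6-ctl hearts and 16.1, 72.0 and 66.6 in Myh6-tg. These groups did not overlap either, but the spread was wide and the test was not passed (log2 fold change -1.55, standard error 0.53, edgeR adjusted p = 0.0816). H2-Eb1, the beta chain of the E molecule, had 87.2, 163 and 125 normalised CPM in Myh6-ctl hearts and 12.7, 55.3 and 52.7 in Myh6-tg. Its log2 fold change was -1.61 (standard error 0.52, edgeR adjusted p = 0.0672), again with no overlap.

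Cd74, which travels with the class II chains through the cell, had 213, 357 and 284 normalised CPM in Myh6-ctl hearts and 28.8, 151 and 138 in Myh6-tg. The groups were separate, and the log2 fold change was -1.40 (standard error 0.55, edgeR adjusted p = 0.116). H2-DMa, the chain of the peptide exchanger, had 7.71, 13.3 and 13.9 normalised CPM in Myh6-ctl hearts and 5.95, 9.29 and 8.54 in Myh6-tg. Here the groups overlapped, because the first Myh6-ctl heart was below the Myh6-tg replicates 2 and 3 (log2 fold change -0.54, standard error 0.29, edgeR adjusted p = 0.241).

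H2-K1 was the class I gene with the largest difference, with 281, 271 and 235 normalised CPM in Myh6-ctl hearts and 173, 202 and 187 in Myh6-tg. Its groups did not overlap, yet the change was small and missed the threshold (log2 fold change -0.46, standard error 0.18, edgeR adjusted p = 0.112). H2-D1, the other heavy chain, had 391, 354 and 345 normalised CPM in Myh6-ctl hearts and 353, 371 and 332 in Myh6-tg, groups that overlapped (log2 fold change -0.03, standard error 0.18, edgeR adjusted p = 0.933). Both heavy chains belong to a family of near-identical genes, and how reads shared between copies were counted is not given in the sources used here, so that their levels are uncertain to that extent.

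B2m had 479, 602 and 370 normalised CPM in Myh6-ctl hearts and 325, 419 and 330 in Myh6-tg, and the groups overlapped (log2 fold change -0.41, standard error 0.24, edgeR adjusted p = 0.271). Tap1 had 23.6, 13.7 and 18.2 normalised CPM in Myh6-ctl hearts and 12.5, 14.7 and 14.6 in Myh6-tg, also overlapping (log2 fold change -0.39, standard error 0.23, edgeR adjusted p = 0.273). All 4 class I estimates were thus negative, between -0.46 and -0.03, without any of them passing. On the deposited FPKM, where the median over all genes was 0.34 on the log2 scale, H2-D1, B2m and Tap1 were at 0.37, 0.0049 and 0.042 and H2-K1 at -0.056. H2-D1 was thus close to the median of all genes on both scales, and the other 3 were below it on both.

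Of the 6 class II genes 5 had every Myh6-tg heart below every Myh6-ctl heart, as did 1 of the 4 class I genes, against 20.3% of all genes tested. At an unadjusted p under 0.05 by edgeR, 5 class II genes and H2-K1 were lower, against 16.8% of all genes. At the study's thresholds for a differentially expressed gene (adjusted p under 0.01 and at least a 2-fold change), edgeR called none of the 10 and 3.97% of all genes. DESeq2 called Ciita, H2-Ab1, H2-Eb1 and H2-Aa at the same thresholds (adjusted p = 0.00037, 0.00105, 0.0034 and 0.0063) and 12.1% of all genes, and edgeR with the replicate number as a block called H2-Ab1 and 6.33% of all genes. The median log2 fold change was -1.58 over class II and -0.40 over class I, beside 0.03 over all genes tested.

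**Figure D2:**
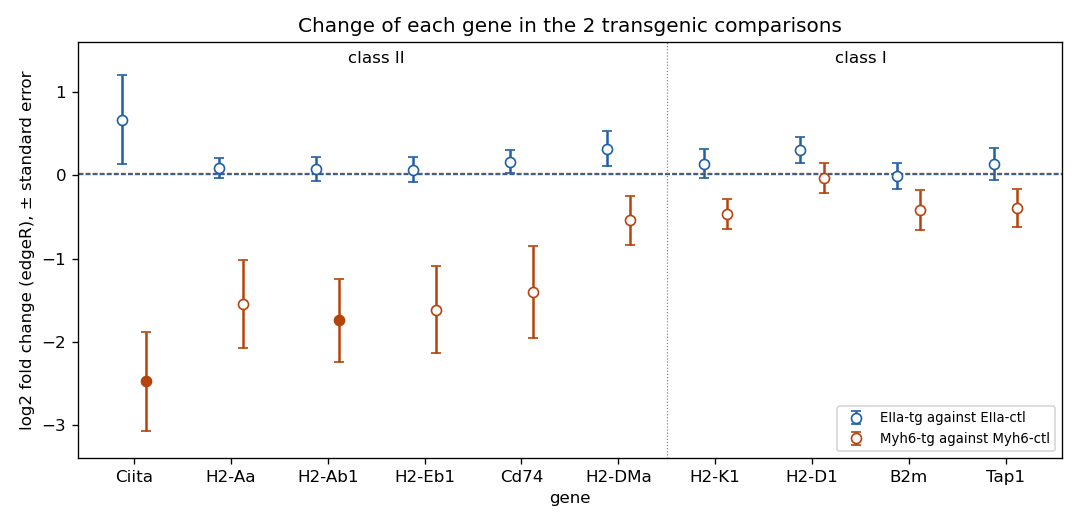
Log2 fold change by edgeR with its standard error for each gene, in EIIa-tg against EIIa-ctl (blue) and Myh6-tg against Myh6-ctl (red); filled points passed an adjusted p of 0.05 and dashed lines give the median of all genes tested. Ciita and H2-Ab1 in Myh6-tg are the filled points, at -2.48 and -1.75, and the EIIa-tg values lie between -0.01 and 0.67.

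Same-numbered Myh6-ctl and Myh6-tg hearts deviated together from their group means (correlations 0.28, 0.18 and 0.17), and a fit with the replicate number as a block raised the calls. The titles name no pairing. Replicate 1 held nearly all Y-linked counts in both groups, so that the block also separates hearts by these counts. With the replicate block, 5 class II genes fell, with edgeR adjusted p = 0.0096 for H2-Ab1, 0.0115 for H2-Aa, 0.0120 for H2-Eb1, 0.0217 for Ciita and 0.0263 for Cd74, against 11.2% of all genes called lower in that fit. The blocked adjusted p was 0.123 for H2-DMa and at least 0.114 for the class I genes. DESeq2 called the same 5 class II genes lower and no class I gene, against 11.6% of all genes with an adjusted p.

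Within the pairs of equal number the size of the difference was uneven. Cd74 was 7.38-fold lower in Myh6-tg than in Myh6-ctl replicate 1, 2.36-fold lower in replicate 2 and 2.06-fold lower in replicate 3. For H2-Ab1 the same ratios were 7.49, 3.15 and 2.64, and for Ciita 13.7, 3.43 and 5.83. H2-D1, by contrast, had ratios of Myh6-ctl over Myh6-tg of 1.11, 0.95 and 1.04. The first pair, whose Myh6-tg heart stood apart, thus carried the widest differences of the class II chains and Cd74.

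The number of calls turned on which hearts were included. Without Myh6-tg replicate 1, the class II median was -1.16 and 5 class II genes fell, beside 13.9% of all genes called lower in that fit, with log2 fold changes of -1.13 for H2-Aa, -1.33 for H2-Ab1, -1.19 for H2-Eb1, -0.96 for Cd74 and -2.08 for Ciita and edgeR adjusted p between 0.0096 and 0.0307. With replicates 2 and 3 of both groups alone, a choice made after seeing the data that leaves out the heart with Y-linked counts in each group, the same 5 genes fell, beside 11.0% of all genes. Leaving out any other heart, that is Myh6-ctl replicate 1, 2 or 3 or Myh6-tg replicate 2 or 3, left 0 of the 10 genes passing, although the class II median then lay between -1.89 and -1.33 (that of all hearts was -1.58). The calls over all genes dropped too, to 798, 1755, 1637, 982 and 969 in these fits in that order, against 2805 with all hearts. The loss of the class II calls is thus not particular to these genes.

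The hearts were next ordered by the balance of the classes, the mean log2 CPM of the 6 class II genes minus that of the 4 class I genes. It was -1.88, -2.63 and -2.23 in EIIa-ctl replicates 1, 2 and 3, -2.34, -1.77 and -2.34 in EIIa-tg, -2.35, -1.48 and -1.45 in Myh6-ctl hearts and -4.27, -2.65 and -2.58 in Myh6-tg. Every Myh6-tg heart was below every Myh6-ctl heart. The Myh6-tg and EIIa-ctl hearts overlapped, because Myh6-tg replicate 3 was above EIIa-ctl replicate 2, and Myh6-tg replicate 2 was close to that EIIa-ctl heart. The group means were -1.76 ± 0.51 (SD, n = 3) in Myh6-ctl and -3.17 ± 0.96 in Myh6-tg. Taken as the class II minus the class I median of log2 fold changes, the difference was -1.18 with all hearts and -0.82 without Myh6-tg replicate 1.

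**Figure D3:**
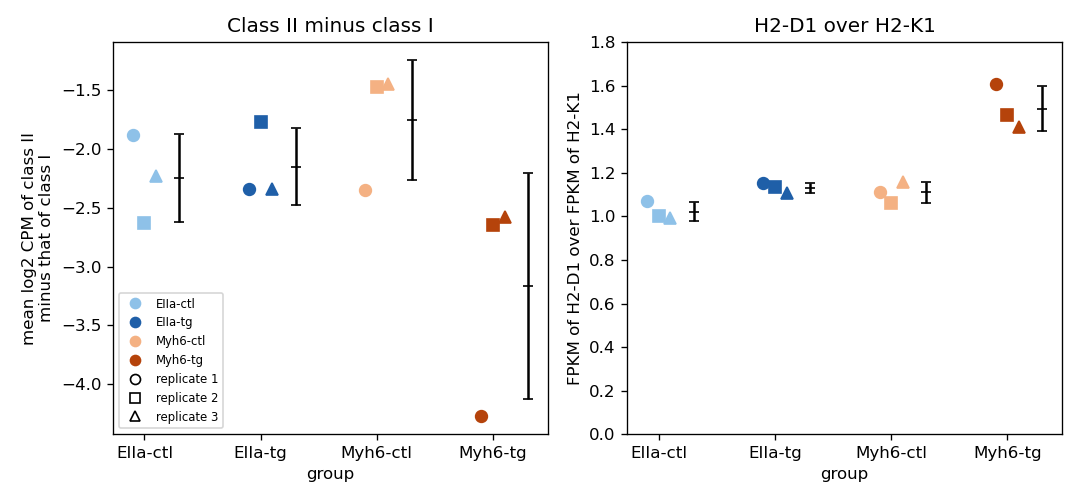
Left, mean log2 CPM of the class II genes minus that of the class I genes in each heart; right, FPKM of H2-D1 divided by FPKM of H2-K1 in each heart. Symbols mark replicates and black bars mean ± SD (n = 3); Myh6-tg replicate 1 lies lowest on the left at -4.27, and the 3 Myh6-tg hearts lie highest on the right, between 1.41 and 1.61.

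Ratios of FPKM within a heart do not depend on library size. The sum of H2-K1 and H2-D1 was 1.15 ± 0.45 times the sum of H2-Aa, H2-Ab1 and H2-Eb1 in Myh6-ctl hearts (SD, n = 3), 1.45 ± 0.23 times in EIIa-ctl and 1.64 ± 0.38 times in EIIa-tg. In Myh6-tg replicates 1, 2 and 3 it was 8.61, 2.17 and 2.09 times that sum, each above the highest of the other 9 hearts. Within class II the chains and Cd74 kept nearly the same proportions, since Cd74 over the 3 chains was 0.69, 0.83 and 0.78 in Myh6-tg hearts and 0.66 to 0.81 in the other hearts. H2-Aa over H2-Ab1 was 1.72 to 1.83 in Myh6-tg and 1.39 to 1.66 elsewhere.

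Within class I the 2 heavy chains parted. H2-D1 over H2-K1 was 0.991 to 1.07 in EIIa-ctl, 1.11 to 1.15 in EIIa-tg, 1.06 to 1.16 in Myh6-ctl hearts but 1.41 to 1.61 in Myh6-tg. The Myh6-tg hearts overlapped no other group, and the EIIa-tg hearts were all above the EIIa-ctl hearts. These ratios were noticed in the values and carry no test, and the share of reads from near-identical copies is unknown in both genes.

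EIIa-tg hearts were compared with EIIa-ctl hearts to ask what expression of the repeat in the whole body does to the heart at day 30. No class I or class II gene passed the test, with edgeR adjusted p between 0.192 and 0.981 over 14908 genes tested, while 17.0% of all genes passed. None of the 10 had an unadjusted p under 0.05 by edgeR either, against 34.9% of all genes, and DESeq2 called none of them. The number of all genes passing was itself unstable, since leaving out EIIa-ctl replicate 1 gave 0, leaving out EIIa-tg replicate 1 gave 0, and the count was 1 without EIIa-ctl replicate 3, 133 without EIIa-tg replicate 3 and 4079 without EIIa-tg replicate 2. Every EIIa-tg call of a list gene or marker given below is thus lost without EIIa-ctl replicate 1 or without EIIa-tg replicate 1.

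The class II chains lay close together in these hearts. H2-Aa had 96.7, 108 and 87.6 normalised CPM in EIIa-ctl and 96.3, 117 and 96.2 in EIIa-tg replicates 1, 2 and 3 (log2 fold change 0.09, standard error 0.12). Cd74 had 213, 230 and 188 normalised CPM in EIIa-ctl and 206, 280 and 218 in EIIa-tg hearts (log2 fold change 0.16, standard error 0.14). Both sets of hearts overlapped, and H2-Ab1 and H2-Eb1 had log2 fold changes of 0.08 and 0.07. Ciita had the largest estimate and the widest error, with 1.59, 0.446 and 2.38 normalised CPM in EIIa-ctl and 1.67, 3.14 and 2.18 in EIIa-tg hearts (log2 fold change 0.67, standard error 0.54, edgeR adjusted p = 0.412). The low value of EIIa-ctl replicate 2 rested on 17 counts.

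Class I was as near to its control level. H2-D1 had 259, 372 and 298 normalised CPM in EIIa-ctl and 384, 339 and 422 in EIIa-tg hearts, which overlapped, and it had the lowest p of the 10 genes (log2 fold change 0.31, standard error 0.15, edgeR adjusted p = 0.192). H2-K1 had 191, 298 and 240 normalised CPM in EIIa-ctl and 265, 236 and 301 in EIIa-tg hearts (log2 fold change 0.14). B2m and Tap1 had log2 fold changes of -0.01 and 0.14. The medians were 0.13 over class II and 0.14 over class I beside 0.02 over all genes.

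Whether the change differed between the models was tested directly, as the Myh6-tg change minus the EIIa-tg change over all 12 hearts. By edgeR none of the 10 genes passed, against 3.92% of all genes. Ciita came nearest, with a difference of -3.15 on the log2 scale (standard error 0.85, edgeR adjusted p = 0.0625). All 6 class II genes and H2-K1 had an unadjusted p under 0.05 with a lower change in Myh6-tg, against 10.8% of all genes. The median difference was -1.67 over class II and -0.47 over class I, beside -0.04 over all genes.

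By DESeq2 the difference passed for 4 class II genes, with an adjusted p of 0.0053 for Ciita, 0.0176 for H2-Ab1, 0.0395 for H2-Eb1 and 0.0490 for H2-Aa, and for no class I gene, against 4.75% of all genes called lower. Without Myh6-tg replicate 1 the edgeR difference passed for 5 class II genes, with adjusted p between 0.0116 and 0.0444, beside 6.62% of all genes called lower in that fit. With replicates 2 and 3 alone it passed for H2-Aa, H2-Ab1, H2-Eb1 and Cd74 and not for Ciita (edgeR adjusted p = 0.130), beside 2.18% of all genes. The call of a difference between the models thus turned on the tool and on the heart that stood apart.

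The controls of the 2 models were set side by side to place the levels, although age, Cre line and oil injection differ together between them and cannot be told apart. No class I or class II gene passed by edgeR, where 0.0334% of all genes did (5 genes). Class II genes had somewhat higher levels in Myh6-ctl than in EIIa-ctl hearts, with a median log2 fold change of 0.62 and estimates from 0.45 (Cd74) to 0.93 (Ciita), and 5 of the 6 had an unadjusted p under 0.05, against 6.45% of all genes called higher. Class I genes had a median of 0.18. In every class II gene the hearts of the 2 control groups overlapped.

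Measured against EIIa-ctl in place of their own controls, Myh6-tg hearts had lower values of the class II chains and Cd74. H2-Ab1 was at 9.97 to 42.0 normalised CPM in Myh6-tg and at 63.9 to 78.8 in EIIa-ctl hearts. H2-Aa was at 16.1 to 72.0 against 87.6 to 108, and Cd74 at 28.8 to 151 against 188 to 230. In H2-DMa the Myh6-tg hearts, at 5.95 to 9.29, overlapped the EIIa-ctl hearts, at 6.98 to 9.11, and so did those in Ciita, at 0.169 to 0.652 against 0.446 to 2.38. These levels carry no test, because the groups differ in age, Cre and injection together.

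The genes that serve the 2 classes were then examined in 4 lists that hold none of the 10 genes. The counts of called genes stand beside 18.3% of all genes in Myh6-tg hearts, 9.38% of them downwards, and 17.0% in EIIa-tg hearts. The first list held other class I heavy chains, 20 of which were in the table. In Myh6-tg hearts 2 of 14 tested fell and none rose, and the median log2 fold change was -0.01. These were H2-Q7, with 20.3, 16.8 and 12.7 normalised CPM in Myh6-ctl hearts and 5.78, 6.92 and 5.67 in Myh6-tg (log2 fold change -1.42, standard error 0.23, edgeR adjusted p = 0.0089), and H2-Q6 (-1.15, edgeR adjusted p = 0.0294), a pair of near-identical nonclassical chains whose reads may be shared. In EIIa-tg hearts 1 of 13 rose, Mr1, the chain that presents vitamin B metabolites to MAIT cells, with 9.67, 10.5 and 11.2 normalised CPM in EIIa-ctl and 22.3, 14.9 and 22.3 in EIIa-tg hearts (log2 fold change 0.93, edgeR adjusted p = 0.0186).

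The next list held genes of class I peptide supply and loading. In Myh6-tg hearts 6 of its 12 genes fell and none rose, beside 9.38% of all genes called lower, with a median log2 fold change of -0.73. Among them Psmb8 and Psmb9 encode catalytic subunits of the immunoproteasome and Psme1 a subunit of its PA28 activator. Psmb8 had 26.5, 21.7 and 20.8 normalised CPM in Myh6-ctl hearts and 10.1, 11.1 and 10.8 in Myh6-tg (log2 fold change -1.09, standard error 0.18, edgeR adjusted p = 0.0087). Psmb9 had 7.68, 7.67 and 6.53 normalised CPM in Myh6-ctl hearts and 2.89, 3.16 and 2.68 in Myh6-tg (-1.30, edgeR adjusted p = 0.0118). Unlike the class II genes, these genes were even across the Myh6-tg hearts, replicate 1 included.

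Psme1 had 94.6, 110 and 71.2 normalised CPM in Myh6-ctl hearts and 45.8, 38.1 and 32.4 in Myh6-tg (log2 fold change -1.22, edgeR adjusted p = 0.0117). The other genes of this list that fell were Erap1, Psmb10 and Tapbpl, by 1.02, 0.87 and 0.89 on the log2 scale, and are named here after their values were seen. Tapbp, the tapasin that holds class I to the transporter, had a log2 fold change of 0.02. With the replicate block 5 of the 12 fell, Tapbpl being the gene lost (edgeR adjusted p = 0.0579). In EIIa-tg hearts none of the 12 passed, and the lowest p was that of Erap1, a peptide trimmer (log2 fold change -0.49, edgeR adjusted p = 0.0537).

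**Figure D4:**
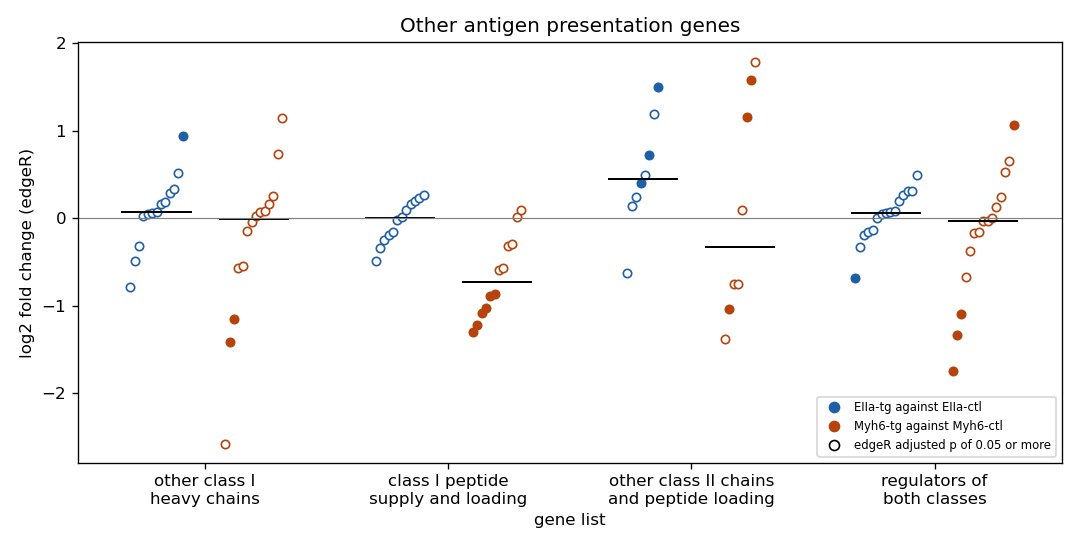
Log2 fold change by edgeR of each tested gene in 4 antigen presentation lists, in EIIa-tg (blue) and Myh6-tg (red) against their controls; filled points passed an adjusted p of 0.05 and black bars are medians. In class I peptide supply and loading 6 red points are filled below 0 and the median is -0.73.

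Of the other class II chains and peptide loading genes, 9 were in the table and 8 were tested. In Myh6-tg hearts 2 rose and 1 fell, beside 18.3% of all genes called in either direction. Ctsl, a lysosomal protease that can trim the invariant chain, had 193, 192 and 155 normalised CPM in Myh6-ctl hearts and 649, 456 and 492 in Myh6-tg (log2 fold change 1.58, standard error 0.22, edgeR adjusted p = 0.0056). Lgmn, another lysosomal protease, rose by 1.16 on the log2 scale (edgeR adjusted p = 0.0314). H2-DMb1, the partner chain of H2-DMa, fell by 1.05 (edgeR adjusted p = 0.0382), with 6.60, 10.5 and 11.8 normalised CPM in Myh6-ctl hearts and 4.41, 5.31 and 4.10 in Myh6-tg. The genes that rose encode proteases with general lysosomal roles, and the gene that fell is specific to class II.

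In EIIa-tg hearts 3 genes of that list rose and none fell, beside 17.0% of all genes called in either direction. Ctss, the protease best known for cutting Cd74 in antigen-presenting cells, had 21.5, 37.9 and 18.2 normalised CPM in EIIa-ctl and 70.9, 51.6 and 96.5 in EIIa-tg hearts (log2 fold change 1.50, edgeR adjusted p = 0.0222). Lgmn rose by 0.73 and Ctsl by 0.40 on the log2 scale (edgeR adjusted p = 0.0166 and 0.0451). In Myh6-tg hearts Ctss had 347, 92.5 and 80.6 normalised CPM against 39.9, 50.1 and 61.9 in Myh6-ctl (log2 fold change 1.79, edgeR adjusted p = 0.0594), highest in the heart where class II was lowest. Without that heart Ctss rose by 0.79 (edgeR adjusted p = 0.0314).

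Among 15 tested regulators of both classes, 1 rose and 3 fell in Myh6-tg hearts, beside 18.3% of all genes called in either direction. The interferon gamma receptor chains moved apart, Ifngr2 falling by 1.34 (edgeR adjusted p = 0.0060) and Ifngr1 rising by 1.07 (edgeR adjusted p = 0.0080). Irf1, an interferon-induced transcription factor, and Nlrc5, the transactivator of class I genes, fell by 1.10 and 1.74 on the log2 scale (edgeR adjusted p = 0.0124 and 0.0343), the latter named after its values were seen.

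Nlrc5 had 7.37, 3.22 and 7.13 normalised CPM in Myh6-ctl hearts and 1.81, 1.03 and 2.37 in Myh6-tg. Rfx5, Rfxap and Rfxank, the subunits of the factor bound to the X box, had log2 fold changes of -0.17, 0.01 and 0.65 and passed in neither direction. Without Myh6-tg replicate 1 these values were -0.13, 0.20 and 0.0096, again without a call. Ifng, the gene of interferon gamma, had 0 counts in all 12 hearts, so that its level could not be compared. In EIIa-tg hearts 1 of 15 regulators passed, beside 17.0% of all genes, namely Ifngr2, which fell by 0.68 (edgeR adjusted p = 0.0350).

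The 2 heavy chains, the 6 genes of class I peptide supply and loading and the 4 regulators named above kept their call and direction without Myh6-tg replicate 1, as did Ctsl, Lgmn and H2-DMb1, and Ctss was added. Lgmn then rose by 0.76 on the log2 scale, against 1.16 with all hearts. Without Myh6-tg replicate 1 more genes passed in total, 4269 against 2805 with all hearts. The lists were not tested with any other Myh6 heart left out, where 798 to 1755 of all genes passed.

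Markers of the cells that make class II were summed in each heart to stand beside the class II values. The 12 macrophage markers, all with counts in every heart, summed to 520 to 734 normalised CPM in Myh6-ctl hearts, against 645 to 1225 in Myh6-tg, and the highest sum was that of Myh6-tg replicate 1. The 9 dendritic cell markers summed to 31.6 to 41.0 in Myh6-ctl hearts, against 20.9 to 22.7 in Myh6-tg, with no overlap. The 6 B cell markers summed to 7.95 to 9.07 and 4.28 to 6.51, also without overlap, and Ms4a1 was at 0 in Myh6-tg replicates 1 and 2.

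These sums rest on few genes. Zbtb46, listed here as a dendritic cell marker, made up 54.2 to 79.2% of the dendritic cell sum in Myh6-ctl and 44.6 to 58.3% of it in Myh6-tg. Which cells of the heart its RNA came from was not tested. The sum of the other 8 markers overlapped between the groups, at 7.32 to 17.6 normalised CPM in Myh6-ctl and 9.20 to 12.6 in Myh6-tg. In the macrophage sum C1qa, C1qb, C1qc, Csf1r and Cd68 took 75.7 to 84.5% in Myh6-ctl and 85.0 to 90.8% in Myh6-tg. Of the 12 macrophage markers 6 had a positive and 6 a negative log2 fold change, and the summed level of the other 7 overlapped between the groups. In the B cell sum Blnk alone had a mean of 5.38 of 8.43 normalised CPM in Myh6-ctl and 3.81 of 5.42 in Myh6-tg. Blnk, which macrophages also express, did not overlap between these groups but did not pass (log2 fold change -0.48, edgeR adjusted p = 0.233). Of the 6 B cell markers 1 had a positive and 5 a negative log2 fold change.

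By edgeR in Myh6-tg hearts 1 of 12 macrophage markers fell (Timd4, a receptor of resident macrophages), 1 of 8 dendritic cell markers fell (Zbtb46) and 1 of 6 B cell markers fell (Ms4a1), while none of the 6 T and NK cell markers tested or of the 6 endothelial markers passed. Beside these counts, 9.38% of all genes were called lower in this comparison. With the replicate block Ms4a1 was not called (edgeR adjusted p = 0.0712) and the endothelial marker Emcn fell (0.0350). Without Myh6-tg replicate 1 Timd4 and Zbtb46 were still called, Ms4a1 was not and Gzmb, a T and NK cell marker, was called lower. With all hearts Gzmb was too low to be tested, at a mean of 0.342 normalised CPM in Myh6-ctl and 0.042 in Myh6-tg. Of the 6 cardiomyocyte markers Myh6 and Tnni3 fell, joined by Ryr2 without Myh6-tg replicate 1. Their sum was 23330 to 30530 normalised CPM in Myh6-ctl hearts and 26937, 10976 and 8597 in Myh6-tg replicates 1, 2 and 3, so that the heart with the lowest class II values was the one within the control range. The T and NK cell markers, 8 of them in the table, summed to 2.67 to 7.49 normalised CPM in Myh6-ctl and 1.83 to 4.43 in Myh6-tg, and the endothelial markers to 565 to 1217 and 541 to 625. The part of these cells in the class II values was not tested.

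**Figure D5:**
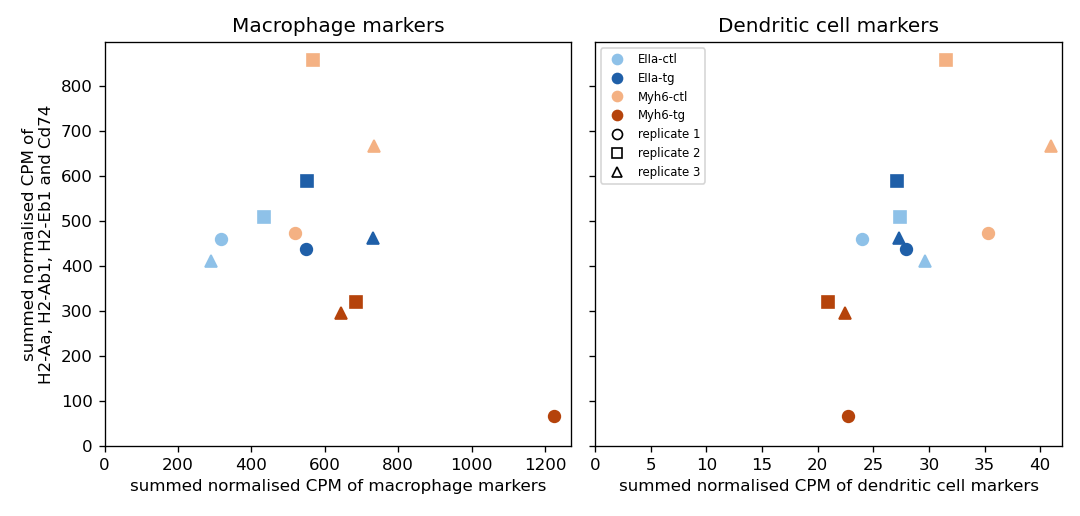
Summed normalised CPM of H2-Aa, H2-Ab1, H2-Eb1 and Cd74 in each heart against the summed normalised CPM of 12 macrophage markers (left) and of 9 dendritic cell markers (right); colours mark groups and symbols replicates. Myh6-tg replicate 1 combines the highest macrophage sum (1225) with the lowest class II sum (67.6), and the 3 Myh6-tg hearts have the lowest dendritic sums.

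Divided by the macrophage sum, the sum of H2-Aa, H2-Ab1, H2-Eb1 and Cd74 was 0.91, 1.51 and 0.91 in Myh6-ctl hearts and 0.06, 0.47 and 0.46 in Myh6-tg. It was 1.17 to 1.45 in EIIa-ctl and 0.635 to 1.07 in EIIa-tg hearts, so that in both models each transgenic heart lay below each of its controls on a sum that the 5 abundant markers dominate. In EIIa-tg hearts 8 of 12 macrophage markers rose and 1 fell, beside 17.0% of all genes called in either direction. The sum of the 12 was 548 to 730 normalised CPM against 291 to 433 in EIIa-ctl, while class II levels overlapped. Divided by the dendritic cell sum, the same class II sum was 13.4 to 27.2 in Myh6-ctl and 2.97, 15.3 and 13.2 in Myh6-tg replicates 1, 2 and 3, of which only that of replicate 2 lay within the Myh6-ctl range. These quotients are descriptions of the summed levels and carry no test.

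In EIIa-tg hearts 1 dendritic cell marker rose (Itgax), 1 B cell marker rose (Blnk), 2 endothelial markers fell (Cdh5 and Kdr), 1 cardiomyocyte marker fell (Ryr2) and none of 4 T and NK cell markers tested passed. Beside these counts, 17.0% of all genes were called in either direction. The dendritic cell sum was 23.9 to 29.6 normalised CPM in EIIa-ctl and 27.1 to 28.0 in EIIa-tg hearts.

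The pattern of each class over the 12 hearts was compared with that of 10368 other genes, as the root mean square difference between log2 CPM centred on the mean of the hearts. H2-Aa, H2-Ab1, H2-Eb1 and Cd74 lay within 0.05 to 0.08 of their common pattern, whose own root mean square was 0.88, and no other gene came as near. The pattern is the mean of these same 4 genes, so that their nearness to it is in part built in. Their summed level was 67.6 normalised CPM in Myh6-tg replicate 1 and 297 to 858 in the other hearts, so that this heart weighs heavily in the pattern. The distances were not computed without it. The next 4 genes were Tppp3, a tubulin polymerization promoting protein (0.23), Stard10, a lipid transfer protein (0.27), Rbm12b2, an RNA-binding motif protein (0.34), and Sncg, gamma-synuclein (0.36), against a median of 0.94 over all genes compared. Tppp3 had 37.7 ± 5.43 normalised CPM (SD, n = 3) in Myh6-ctl hearts, against 14.5 ± 9.93 in Myh6-tg. Of these 4 genes only Sncg passed in Myh6-tg (log2 fold change -1.45, edgeR adjusted p = 0.0308).

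The class I pattern, the mean of H2-K1, H2-D1 and B2m, moved little, with a root mean square of 0.20 over the hearts. H2-K1, B2m and H2-D1 lay 0.11, 0.12 and 0.14 from it, and 0, 2 and 7 other genes lay nearer to it than they did. Here too the nearness of these genes is in part built in, because they make up the pattern. The 4 nearest other genes were Dctn5, a dynactin subunit (0.11), Med17, a Mediator subunit (0.12), Hacd2, an enzyme of fatty acid elongation (0.13), and Magoh, a part of the exon junction complex (0.13). Both distances are descriptions over hearts that share library depth and cell composition.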

How the data were processed

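Heart RNA (1 µg of total RNA per library, NEBNext Ultra kit) was sequenced by the authors as paired ends of 150 bases on a NovaSeq and aligned to GRCm38 with HISAT2. The submitters' processing notes name HISAT2 2.0.4, StringTie 2.2.1 and DESeq2 and the builds mm10 and GRCm39; the counting program, its strand setting and its annotation release are not given in the sources used here. The deposited counts are whole reads per gene, not normalised, and the deposited FPKM are fragments scaled by gene length and library size as computed by the authors.

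Columns were assigned to hearts by title, and no per-sample column was left over. Genes were tested with edgeR 4.0.16 in R 4.3.3 (filterByExpr, trimmed mean of M values, quasi-likelihood F test, Benjamini-Hochberg adjustment over all genes tested), each transgenic group against its own controls, with an interaction contrast over 12 hearts for the difference between models. A gene passed at an adjusted p under 0.05. Standard errors are the log2 fold change divided by the root of F. Alternatives were DESeq2 1.42.0, limma 3.58.1 on log2(FPKM + 1) and log2(FPKM + 0.1) of genes with at least 0.5 FPKM in enough hearts, other normalisations and filters, the replicate number as a block, and each heart left out in turn. The genes, lists and tests were chosen with earlier results of these data known. Apart from the 10 genes, the text names up to 3 passing genes of each antigen presentation list and comparison with the lowest p (or the 1 gene with the lowest p) and the 4 genes most like each class. List symbols absent from the table were looked up by identifier, which found 1 gene. Members of the lists that were too low for the filter were not tested, and 1 gene of the regulators is not reported here and was left out of that list.

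Labels call the replicates separate samples, and p-values measure the spread between these hearts. Same-numbered Myh6 hearts correlated at 0.28, 0.18 and 0.17 after removal of group means, and EIIa hearts at 0.06, -0.07 and -0.05. The titles number the replicates without naming a pairing, so that the block for the Myh6 hearts was chosen from these correlations. The tests were tested on simulated counts. The changed genes were drawn only from genes above a level that Ciita does not reach, so that changes in genes that low were not simulated. For Myh6-tg against Myh6-ctl, edgeR recovered 11.4% of genes changed by 1 and 85.7% of genes changed by 2 on the log2 scale among 14973 genes, and DESeq2 39.8% and 99.1% among 15288. For EIIa-tg against EIIa-ctl the shares were 81.2% and 98.3% among 14681 genes by edgeR and 89.4% and 97.4% among 14906 by DESeq2. Figures were drawn with matplotlib.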

Additional observations from a re-analysis of the deposited data

Results flagged for a closer look

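Of the 106 genes tested in the lists, 6 had a change in Myh6-tg hearts that differed from that in EIIa-tg hearts by edgeR's interaction test, beside 3.92% of all genes, and none of them was among the 10 class I and class II genes. Psmb8 and Psmb9, the immunoproteasome subunits, had the lower change in Myh6-tg, with differences of -1.28 (edgeR adjusted p = 0.0118) and -1.53 (0.0112) on the log2 scale. Ifngr1, the ligand-binding chain of the interferon gamma receptor, and Ctsl differed the other way, by 0.87 and 1.18 (edgeR adjusted p = 0.0183 and 0.0192). The macrophage marker Adgre1, which encodes F4/80, differed by -1.64 (edgeR adjusted p = 0.0289), with a log2 fold change of 1.04 in EIIa-tg and -0.60 in Myh6-tg. Blnk, an adaptor of B cells that macrophages also express, differed by -1.94 (edgeR adjusted p = 0.0126), with 1.46 in EIIa-tg and -0.48 in Myh6-tg. Groups held 3 hearts, too few to test single hearts as outliers.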

How the results depend on the processing

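Over the 10 genes, 4 comparisons and their alternatives, 653 of 722 values kept their direction and side of the threshold, 29 newly passed, 12 no longer passed and 28 turned direction. In Myh6-tg against Myh6-ctl all 100 alternative values of the 6 class II genes were negative, between -2.75 and -0.10. Every value that turned direction had not passed the test.

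With all hearts, 2 of the 10 genes passed in Myh6-tg against Myh6-ctl. The number was 5 by DESeq2, 5 with the replicate block, 5 when the 12 hearts shared a fit, 5 with replicates 2 and 3 only (an alternative chosen after seeing the data), 0 by limma on log2(FPKM + 1) and 0 on log2(FPKM + 0.1), and 0 to 5 when hearts were left out in turn. Beside these, 2805 of all genes passed with all hearts, 3204 with the replicate block and 5049 when the 12 hearts shared a fit. The count was 3320 with replicates 2 and 3 only, 4228 by limma on log2(FPKM + 1) and 798 to 4269 when hearts were left out. DESeq2 called 11.6% of all genes lower. For the difference between models, 0 passed with all hearts, 4 by DESeq2, 1 by the bias-adjusted quasi-likelihood fit, 4 with replicates 2 and 3 only, and 0 to 5 when hearts were left out. Of all genes 624 passed with all hearts, 1384 by DESeq2, 526 with replicates 2 and 3 only and 293 to 1727 when hearts were left out. The cause of these shifts was not tested.

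The count of all genes passing in Myh6-tg (2805) was 4228 by limma on log2(FPKM + 1), 5049 when the 12 hearts shared a fit and 798 to 4269 when hearts were left out. The 608 genes at the study's thresholds became 2135 by DESeq2, 969 with the replicate block, 1257 and 1380 by limma with pseudocounts 1 and 0.1, 1857 when the 12 hearts shared a fit, 1021 with replicates 2 and 3 only, and 26 to 1690 when hearts were left out. In EIIa-tg the 2527 genes became 1 with the replicate block, 227 when the 12 hearts shared a fit, 0 with replicates 2 and 3 only, and 0 to 4079 when hearts were left out. Same-numbered EIIa hearts did not deviate together, so that this block result is given here only. For the difference, 624 genes became 1384 by DESeq2 and 293 to 1727 when hearts were left out. Between the controls, 5 genes became 416 by DESeq2, 65 without a filter, 11 with a CPM of at least 1 in 3 hearts, 27 with the replicate block, 18 with the bias-adjusted fit, 8 by limma on log2(FPKM + 0.1), 8 with replicates 2 and 3 only, and 3 to 98 when hearts were left out.

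On FPKM the median of all genes in Myh6-tg moved from 0.03 to 0.34 (pseudocount 1) and 0.43 (0.1), and the class I median from -0.40 to 0.023 and 0.029; with replicates 2 and 3 only it was -0.24. In the same FPKM fits H2-D1 was 0.37 and 0.37, B2m 0.0049 and 0.0049, and Tap1 0.042 and 0.054. H2-D1 was 0.021 with replicates 2 and 3 only and -0.074 to 0.027 when hearts were left out. The class I median of the difference between models (-0.47) was -0.24 and -0.26 on FPKM and -0.24 with replicates 2 and 3 only. In EIIa-tg, B2m was 0.0086 with the replicate block and 0.20 and 0.21 on FPKM, and H2-K1 was -0.0012 with replicates 2 and 3 only. When hearts were left out, EIIa-tg values ran from -0.12 to 0.16 for B2m, -0.0088 to 0.32 for H2-K1, -0.065 to 0.30 for Tap1, -0.096 to 0.18 for H2-Eb1, -0.0096 to 0.17 for H2-Aa and -0.078 to 0.17 for H2-Ab1. Between the controls Tap1 was 0.0036 and 0.0035 on the FPKM scales and -0.24 to 0.16 when hearts were left out, and H2-K1 was -0.081 with replicates 2 and 3 only and -0.033 to 0.30 when hearts were left out.

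Ciita rested on 8 to 35 counts in Myh6-tg hearts, which limits its fold change, and it was too low for the FPKM fits. Changes as small as those of class I were not simulated.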
